A study of Homo sapiens with 4 samples.

Results

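The high mobility group genes encode small, abundant chromatin proteins, and 10 of them were followed here across liver cancer cells treated with a mimic of the microRNA miR-4730. They are HMGA1, HMGA2, HMGB1, HMGB2, HMGB3, HMGN1, HMGN2, HMGN3, HMGN4 and HMGN5, taken by symbol from the annotation of the array. Each of the 10 had 1 probe set, out of 17687 genes with a probe set in all, and each was among the 12381 genes bright enough to be tested. The series title names HMGA1 as the route by which miR-4730 acts in hepatocellular carcinoma, so the mimic arrays ask how HMGA1 transcripts and those of its relatives stood after the mimic. The cells were HEP-G2 and Li-7, both established human lines from liver cancers. A lipid reagent carried either a negative control oligonucleotide or the miR-4730 mimic into them. The mimic was given at 3 nM, 24 h after seeding, and no dose or time is recorded here for the control. RNA of each line and treatment went onto 1 Affymetrix array, so a control and a mimic sample stand for each line and the 4 groups hold 1 array each. The lines were grown in different media, so line and medium cannot be told apart. No group had a replicate array, so a difference within a line has no replicate check, and the number of arrays limits the precision of every value.

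High mobility group proteins bend, loosen or bridge chromatin without being core histones. HMGA proteins grip the minor groove of AT-rich DNA with short AT-hooks, are made mainly in embryonic and tumour cells, and help enhancer complexes assemble. HMGB proteins bend DNA with their HMG boxes, and HMGB1 also acts as a danger signal outside the cell, while HMGN proteins bind nucleosomes themselves and compete with linker histone H1. A microRNA guides the silencing complex to transcripts that pair with its seed, the bases from position 2 to 8, which usually lowers the level of those transcripts.

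The sequence below is that of the microRNA that the mimic copies, followed by the 1 other human mature microRNA that shares its bases from position 2 to 7. Capitals mark positions 2 to 8. Both sequences are RefSeq's (GRCh38.p14), miR-4730 from chr17:80419427-80419449 and miR-6770-3p from chr16:14930859-14930879, each on the plus strand.
hsa-miR-4730: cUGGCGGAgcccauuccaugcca
hsa-miR-6770-3p: cUGGCGGCugugucuucacag
Among 2370 mature human microRNAs in that table, 0 others carry the whole seed UGGCGGA. Pairing with that seed asks for its complement UCCGCCA in a transcript. The transcripts of the 10 genes were not searched for it here, so no site is given.

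Values are probe-set summaries on the deposited log2 scale, on which a difference of 1 is 2-fold if the base is 2. The 612 probe sets marked as negative controls by their identifiers were taken as an array background, and what they match was not checked. Their 95th percentile was 8.72 (control) and 7.99 (mimic) for Li-7, and 8.35 (control) and 8.20 (mimic) for HEP-G2. Each lay above the median of all probe sets on its array (7.03 to 7.17), so it is a strict limit. A value under that percentile of its own array is called dim. Of the 11 liver lineage markers measured, 11 lay above it on both HEP-G2 arrays. In Li-7 only KRT8, KRT18 and EPCAM did on the control array, joined by SERPINA1 on the mimic array. ALB, AFP, APOA1, APOB, TTR, FGB and GPC3, the defining hepatocyte and fetal liver products, were dim in both Li-7 samples, so the arrays labelled Li-7 carried epithelial but few hepatocyte transcripts. Among 11 markers of blood, endothelial and stromal cells, LYZ alone was above background on any array, and it was so on all 4. In bulk RNA, fewer transcripts in every cell and fewer cells with the transcript cannot be told apart.

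HMGA1, the architectural factor named by the series, fell with the mimic in both lines. For Li-7 it stood at 14.93 with the control and 10.91 with the mimic, and for HEP-G2 at 14.79 and 11.61. Both control values were high and nearly level, and both mimic values were lower than either control. That is a difference of -4.02 for Li-7, 16.2-fold lower on the deposited scale, and of -3.17 for HEP-G2, 9.02-fold lower. Of all genes tested, none had a lower change in Li-7 and 3 had a lower one in HEP-G2. A linear model of line and treatment, fitted with limma over all genes, gave a mean change of -3.59 (SE 0.29, n = 2 lines) and an adjusted p of 0.0241 by Benjamini-Hochberg. The spread behind that p joins the gap between both responses of the gene (1 residual degree of freedom) with a variance pooled over all genes (5.85 prior degrees of freedom), which carries most of the weight. Neither is a spread between replicate cultures. HMGA1 was the 1 high mobility group gene of 10 that passed as lower, against 0.339% of all genes tested, and 0 of 10 passed as higher, against 0.0808%. At an unadjusted limma p under 0.05 the counts were 4 (HMGA1, HMGB2, HMGB3 and HMGN2) and 0, against 9.71% and 9.75% of genes. HMGA1 did not pass when the variance was not moderated (ordinary t statistic, adjusted p = 0.640 from the limma fit) or when the model held treatment alone (limma adjusted p = 1), settings under which 1 and 0 genes passed in all (979 and 182 at an unadjusted p under 0.05). Nor did it after cyclic loess on named genes (change -3.58, limma adjusted p = 0.0545, range over the settings tried 0.000712 to 1). HMGA1 stayed above background with the mimic, where its Li-7 value exceeded 98.7% and its HEP-G2 value 99.3% of the negative controls.

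HMGA2, the other AT-hook protein of the family, was not lower with the mimic in Li-7. Its Li-7 values were 7.74 (control) and 9.89 (mimic), and its HEP-G2 values 8.45 and 8.35. The Li-7 mimic value was the highest of the 4 and the Li-7 control value the lowest, while both HEP-G2 values lay close together and barely above background. The Li-7 difference of 2.15 exceeded that of 99.9% of genes tested, but it starts from a dim control value, so its size is uncertain. In HEP-G2 the difference was -0.10, and the mean change of 1.03 (SE 0.49) had a limma adjusted p of 0.310. The gap between the lines in their response was -2.25 (HEP-G2 minus Li-7), lower than in all but 0.153% of genes tested, and could not be tested with 1 array per group.

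**Figure D1:**
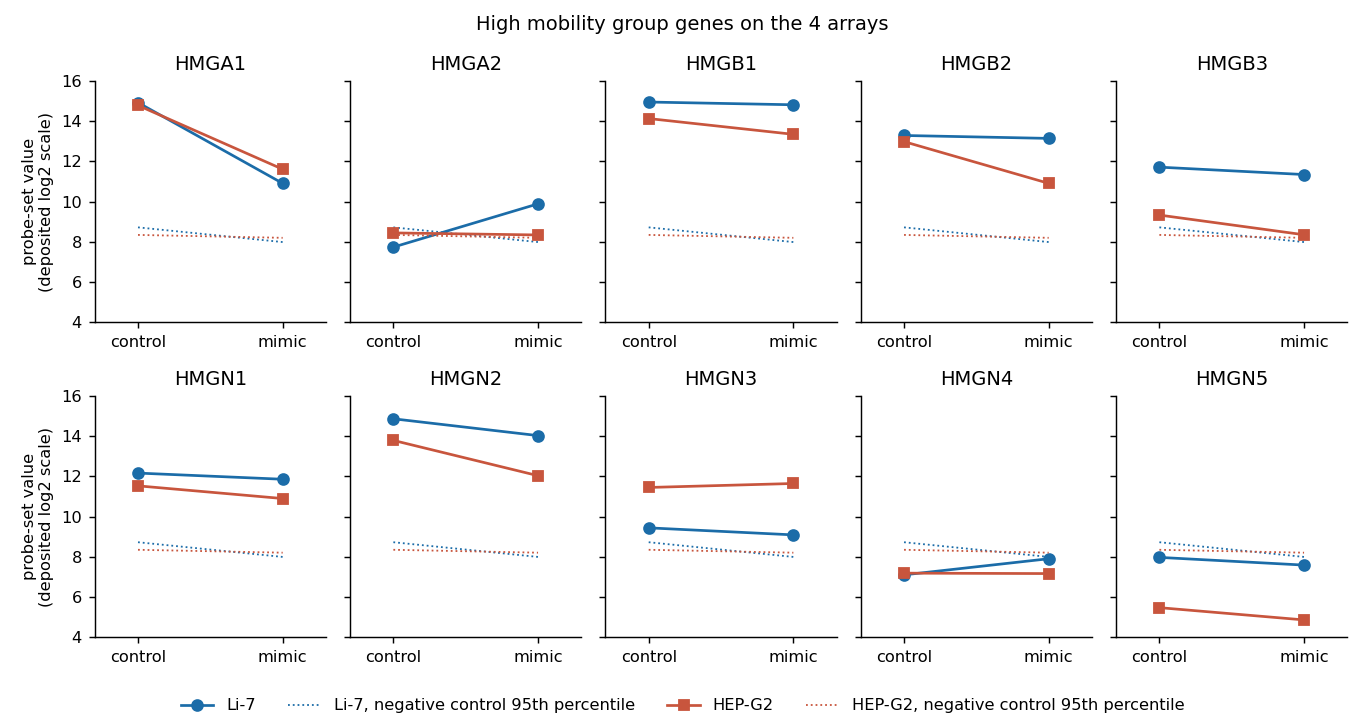
Probe-set value on the deposited log2 scale (vertical axis) on the control and mimic array of each line for the 10 high mobility group genes, 1 array per point. Blue circles are Li-7, red squares HEP-G2, and dotted lines the limit under which a value is called dim. Both HMGA1 lines slope steeply down, from 14.93 and 14.79 to 10.91 and 11.61, the HMGA2 line of Li-7 slopes up, the HMGB2 line slopes down in HEP-G2, and HMGN4 and HMGN5 lie under the dotted lines throughout.

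The 3 HMGB genes had negative differences in both lines, each more so in HEP-G2, and none of the 3 passed the test. HMGB2, an HMG-box protein that is abundant in dividing cells, stood at 13.29 (control) and 13.15 (mimic) for Li-7, and for HEP-G2 at 12.99 and 10.91. Its HEP-G2 mimic value lay apart from the other 3, which were within 0.31 of each other. The Li-7 difference was -0.15. The HEP-G2 difference of -2.07 was 4.21-fold lower and below all but 0.646% of genes tested, and the limma mean change was -1.11 (SE 0.44, adjusted p = 0.235). The response of HMGB2 thus differed by -1.93 (HEP-G2 minus Li-7), below all but 0.444% of genes, and this gap was not tested. HMGB1, the member that also signals outside cells, had Li-7 values of 14.96 and 14.82 and HEP-G2 values of 14.13 and 13.35, all high. Its differences were -0.14 and -0.78, with a limma mean change of -0.46 (SE 0.27, adjusted p = 0.405). HMGB3, an X-linked member known from stem and progenitor cells, had Li-7 values of 11.72 and 11.35 and HEP-G2 values of 9.34 and 8.36, the last close to background. The HMGB3 differences were -0.37 and -0.98, and the limma mean change was -0.67 (SE 0.27, adjusted p = 0.237).

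HMGN2, a nucleosome-binding protein, had the lowest mean change after HMGA1 among the 10 genes. Its Li-7 values were 14.86 (control) and 14.03 (mimic), its HEP-G2 values 13.79 and 12.03, all far above background. Each mimic value was under its own control, but the Li-7 mimic value lay above the HEP-G2 control value. The differences were -0.84 and -1.76, the latter 3.38-fold lower, and the mean change was -1.30 (SE 0.30). It did not pass as deposited (limma adjusted p = 0.104), but did after quantile normalization (limma adjusted p = 0.0473) and with an intensity trend in the variance (limma adjusted p = 0.0291, range over the settings tried 0.0291 to 1). Under those settings 465 and 411 of the 12381 genes passed, against 52 as deposited. HMGN2 passed under no other setting. HMGN1, its close relative encoded on chromosome 21, had Li-7 values of 12.16 and 11.86 and HEP-G2 values of 11.53 and 10.90, with differences of -0.31 and -0.63. The HMGN1 mean change was -0.47 (SE 0.25, limma adjusted p = 0.358).

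The other HMGN genes showed smaller or dim differences. HMGN3, a member with more restricted expression, had Li-7 values of 9.44 and 9.09 and HEP-G2 values of 11.45 and 11.64, with a difference of -0.35 in the first line and 0.20 in the other. Its mean change was -0.08 (SE 0.26, limma adjusted p = 0.909). HMGN5, an X-linked member with a long acidic tail, had Li-7 values of 7.97 and 7.59 and HEP-G2 values of 5.47 and 4.86, all dim, with a mean change of -0.50 (SE 0.25, limma adjusted p = 0.321). HMGN4, an intronless gene derived from HMGN2, had Li-7 values of 7.10 and 7.90 and HEP-G2 values of 7.19 and 7.17, again all dim, with a mean change of 0.39 (SE 0.29, limma adjusted p = 0.510). The HMGN4 difference of -0.02 in HEP-G2 turned positive under each of 5 other scalings of the arrays, at most 0.04. HMGA1, HMGB1, HMGN1 and HMGN2 have processed pseudogenes of near-identical sequence, and HMGN4 resembles HMGN2, so probes may be shared among copies. Probe sequences were not used here.

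Counted together, 8 of the 10 genes had a negative mean change, where 47.3% of all genes tested did, and their median was -0.48 against 0.03 over all genes. A negative difference was found for 8 genes on the Li-7 arrays, against 48.2% of all genes, and for 9 on the HEP-G2 arrays, against 48.8%. Under the other scalings the HEP-G2 count was 8, without HMGN4. Both differences were negative in 7 of 10, all but HMGA2, HMGN3 and HMGN4, where 31.0% of all genes were. Within a line, the median was -0.33 for Li-7 and -0.71 for HEP-G2. At a 2-fold limit, HMGA1 alone was lower in Li-7 (1 of 10, against 4.12% of all genes) and HMGA2 alone higher (1 of 10, against 3.72%). In HEP-G2, HMGA1, HMGB2 and HMGN2 were at least 2-fold lower (3 of 10, against 6.28%), and 0 of 10 were 2-fold higher, against 5.77%. Only HMGA1 was at least 2-fold lower in both lines (1 of 10, against 1.76%). These counts come from single arrays with no test. The response was more negative in HEP-G2 than in Li-7 for 8 of 10 genes, HMGA1 and HMGN3 being the exceptions, where 51.6% of all genes were.

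**Figure D2:**
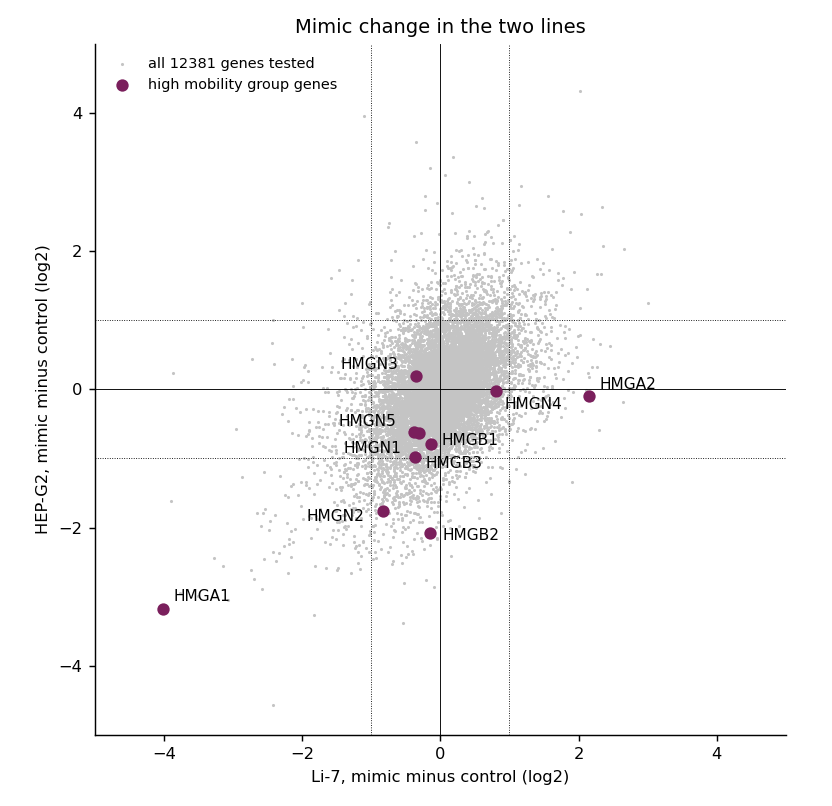
Mimic minus control on the deposited log2 scale in Li-7 (horizontal) and HEP-G2 (vertical), 1 array pair per line. Grey points are the 12381 genes tested, purple points the 10 high mobility group genes, and dotted lines mark 2-fold. Of the 10 genes, HMGA1 alone lies at the lower left, at -4.02 and -3.17, HMGB2 and HMGN2 lie under the 2-fold line of HEP-G2 only, and HMGA2 lies to the right at 2.15 on the Li-7 axis.

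The lines also differed in their levels of these genes, 5 being lower and 1 higher in HEP-G2 than in Li-7 by the line term of the same limma fit. Those counts stand against 24.3% and 20.7% of all genes tested, and the 6 of 10 in either direction against 44.9%. HMGB3 differed by -2.38 on the control arrays and by -2.99 on the mimic arrays (HEP-G2 minus Li-7), a mean of -2.69 (SE 0.27, limma adjusted p = 0.000254). HMGN5 had a mean difference of -2.61 (SE 0.25, limma adjusted p = 0.00019), with every value dim. HMGN2 had one of -1.53 (SE 0.30, limma adjusted p = 0.00574) and HMGB1 one of -1.15 (SE 0.27, limma adjusted p = 0.0132). HMGN3 went the other way and was higher in HEP-G2, by 2.01 on the control arrays and 2.56 on the mimic arrays, a mean of 2.28 (SE 0.26, limma adjusted p = 0.000507). HMGN1 passed with a smaller difference of -0.80 (SE 0.25, limma adjusted p = 0.0381), but not after median centring, where it was -0.67 (limma adjusted p = 0.0652, range over the settings tried 0.0168 to 0.299).

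HMGA1 itself was nearly level between the lines. Its control values differed by -0.14 (HEP-G2 minus Li-7), its mimic values by 0.70, and the mean difference of 0.28 (SE 0.29) had a limma adjusted p of 0.473. HMGB2 showed the opposite order, since the control arrays differed by -0.31 and the mimic arrays by -2.24 (HEP-G2 minus Li-7). Its mean of -1.27 (SE 0.44) missed the threshold as deposited (limma adjusted p = 0.0532) and passed after quantile normalization (limma adjusted p = 0.0214, range over the settings tried 0.0214 to 0.530). HMGA2 had a difference of opposite sign on the control arrays (0.71) and the mimic arrays (-1.55), with a mean of -0.42 (SE 0.49, limma adjusted p = 0.528). HMGN4 differed by -0.33 (SE 0.29, limma adjusted p = 0.400). As with the mimic term, most of the weight in these errors lies on the variance pooled over all genes, and none comes from replicate cultures. With treatment left out of the model, HMGB1, HMGN1 and HMGN2 no longer passed (limma adjusted p = 0.0565, 0.128 and 0.120). With an ordinary t statistic none of the 10 passed (lowest adjusted p of that unmoderated t test 0.245).

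**Figure D3:**
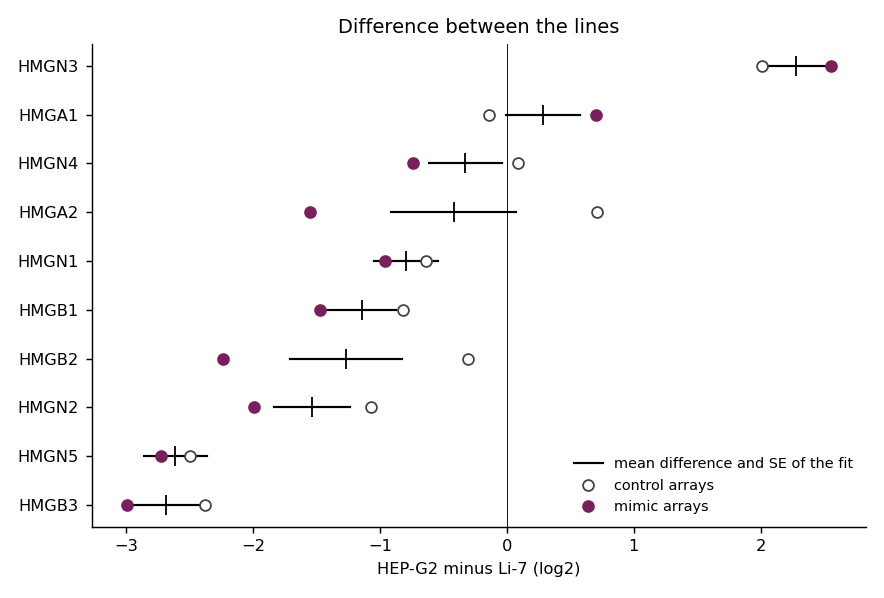
HEP-G2 minus Li-7 on the deposited log2 scale for each gene, open circles for the control arrays and purple circles for the mimic arrays, with the mean (tick) and its SE from the fit (bar). HMGB3 and HMGN5 sit furthest left and HMGN3 furthest right, while HMGA2 and HMGB2 have the widest gaps between the control and mimic arrays.

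The genes whose pattern was most like that of HMGA1 were found by the distance between values centred on each gene's mean over the 4 arrays. GNPDA1, an enzyme of amino sugar metabolism, was the nearest of all genes tested at a distance of 0.75, with Li-7 values of 9.71 (control) and 6.43 (mimic) and HEP-G2 values of 9.70 and 7.26. Both of its mimic values were dim, as were those of TBL1X. H2BC14, a histone H2B gene with close copies, followed at 1.03, then TBL1X, part of a nuclear corepressor complex, at 1.11, POM121, a nuclear pore protein, at 1.21, and ATP5F1D, an ATP synthase subunit, at 1.26. The mean changes of these 5 genes ran from -3.24 (H2BC14) to -2.51 (POM121). The median distance over all genes was 3.81. Of the other 9 high mobility group genes, the nearest was HMGN2 at 3.06, rank 769, and the farthest HMGA2 at 4.92, rank 11135.

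The promoters of HMGA1 and HMGN2, the pair of genes with the lowest mean changes among the 10, are printed to show what lies before their starts. Each line gives the 250 bases before the start of the gene in RefSeq (GRCh38.p14), on the plus strand, at chr6:34236623-34236872 for HMGA1 and chr1:26472190-26472439 for HMGN2. Capitals mark the motifs searched on both strands, which are named in the next paragraph.
HMGA1: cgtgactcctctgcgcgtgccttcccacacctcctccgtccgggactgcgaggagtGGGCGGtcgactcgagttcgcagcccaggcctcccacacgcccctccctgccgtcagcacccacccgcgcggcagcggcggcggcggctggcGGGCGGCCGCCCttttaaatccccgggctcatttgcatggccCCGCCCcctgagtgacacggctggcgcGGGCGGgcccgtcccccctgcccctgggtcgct
HMGN2: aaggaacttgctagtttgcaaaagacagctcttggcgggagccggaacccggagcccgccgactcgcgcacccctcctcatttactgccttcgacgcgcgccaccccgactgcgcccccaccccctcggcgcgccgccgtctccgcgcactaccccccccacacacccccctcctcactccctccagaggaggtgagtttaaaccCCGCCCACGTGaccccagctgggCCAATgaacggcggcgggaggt
HMGA1 has 1 more annotated start with a window in that table, and HMGA2 and HMGB2 were not matched there.

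Of the 8 genes with a window, some with several starts, 6 hold GGGCGG, the GC box bound by SP1. Counted by window, 8 of their 12 windows hold it, against 42.6% of all 35116 windows of this length. No share by gene was computed. The 12 windows ran from 51.2% to 87.6% GC, with a median of 58% over all windows, and whether this bears on the counts was not tested. HMGA1 has 5 matches to GGGCGG in the printed window, 3 on the strand of the gene and 2 on the other, and HMGN2 has 1 on the other strand. A further motif, the CCAAT box of NF-Y, was held by 6 of the 8 genes, in 7 of the 12 windows, against 32.0% of all windows. HMGN2 carries it from 22 to 18 bases before its start, and HMGA1 does not in the printed window. The E-box CACGTG bound by MYC and its relatives was in the window of HMGN2 alone, where it overlaps the GC box by its first base, and in 6.34% of all windows. A plain TATA box, written TATAAA, was in 0 of the 8 genes and 10.7% of all windows. Both E2F motifs searched were absent from the windows of all 8 genes. TTTCCCGC was in 1.39% of all windows. Its counterpart TTTGGCGC was in 0.55% of them. A match is a description of these letters, and binding was not measured.

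Other genes that share a domain, a partner or a described tie with the high mobility group proteins were followed as 5 lists. Among proteins that carry an HMG box outside the 10 genes, 21 of 27 listed were tested. Their median change was -0.09, with 14 negative as deposited and 11 to 15 negative under the other scalings, and 0 passed in either direction (limma, 4 lower and 1 higher at an unadjusted p under 0.05). Over all genes tested 47.3% were negative, and at that unadjusted p 9.71% were lower and 9.75% higher. By line, the median of the list was 0.104 for Li-7 (9 of 21 negative) and -0.455 for HEP-G2 (16 of 21 negative). The shares of all genes that were negative were 48.2% for Li-7 and 48.8% for HEP-G2. WDHD1, a replication factor dim in HEP-G2, stood at -1.15 (limma adjusted p = 0.110), SOX2, a stem cell factor above background only on the Li-7 mimic array, at 1.01 (limma adjusted p = 0.127), and LEF1, a WNT pathway factor that was dim on all 4 arrays, at -0.81 (limma adjusted p = 0.165). SSRP1, the HMG-box subunit of the FACT histone chaperone, stood at -0.46.

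Linker histones, which HMGN proteins displace, and the chaperones of H1 and nucleosomes lay lower with the mimic without passing. Of 12 listed 10 were tested, 10 had a negative mean change as deposited and under each other scaling, and 0 passed in either direction (limma, 3 lower and 0 higher at an unadjusted p under 0.05, against 9.71% and 9.75% of all genes). Negative changes were found in 47.3% of all genes. Their median was -0.49, where that of all genes was 0.03, with -0.19 for Li-7 and -0.83 for HEP-G2. H1-5, a linker histone of dividing cells, had a Li-7 difference of -0.96 and a HEP-G2 difference of -2.19 (mean -1.57, SE 0.34, limma adjusted p = 0.0907, and 0.0298 to 1 over the settings tried). NASP, a histone chaperone, had a mean of -1.23 (limma adjusted p = 0.104), and PTMA, an acidic protein that binds H1, one of -1.12 (limma adjusted p = 0.139). H1-3, dim but for the Li-7 control array, had differences of -2.13 and 0.04.

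Partners and receptors of HMGB proteins held no gene past the threshold, though few were tested. Of 16 listed, 7 were tested, and AGER, TLR2, TLR9, HAVCR2, THBD and RAG1 were below the filter on dim genes. The median change was -0.29, and 5 of 7 were negative, where 47.3% of all genes were. In either direction 0 passed, against 0.339% of all genes as lower and 0.0808% as higher. At an unadjusted limma p under 0.05 the counts were 0 and 0, against 9.71% and 9.75% of all genes. CXCR4, a receptor of CXCL12 complexed with HMGB1, stood at -0.44 (limma adjusted p = 0.447) with all values dim. APEX1, a repair enzyme found with HMGB2 in the SET complex, stood at -0.44 (limma adjusted p = 0.379). CD24, a surface protein that damps HMGB1 signals, stood at -0.35 (limma adjusted p = 0.489), and its control value was 14.85 for Li-7 but 5.82, dim, for HEP-G2.

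Regulators of HMGA genes lay on both sides of 0, with a median of 0.35. As deposited, 6 of 11 tested were positive and 5 negative, where 47.3% of all genes were negative. In either direction 0 passed (limma, 2 lower and 5 higher at an unadjusted p under 0.05, against 9.71% and 9.75% of all genes). JUN, an AP-1 subunit, stood at 1.55 in Li-7 and at 2.80 in HEP-G2, where both values were dim (mean 2.18, SE 0.34, limma adjusted p = 0.0601, and 0.00889 to 1 over the settings tried). E2F1, a driver of S phase genes, stood at -1.38 and -1.08 (limma adjusted p = 0.0851), dim in HEP-G2, and DICER1, which matures microRNAs, at 1.70 and 0.52 (limma adjusted p = 0.153). LIN28B, which blocks the let-7 microRNAs that repress HMGA2, stood at 1.15 in Li-7, where it was dim, and 0.50 in HEP-G2. MYC, a described activator of HMGA1, had a Li-7 difference of 0.12 and a HEP-G2 difference of -1.36.

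Among genes described elsewhere as targets of HMGA proteins, 16 of 21 were tested, with a median change of 0.16. Their mean changes were negative in 7 and positive in 9, where 47.3% of all genes were negative. BRCA1, a repair gene that HMGA1 is described to repress, was the 1 that passed, against 0.339% of all genes passing as lower. At an unadjusted limma p under 0.05, 5 were lower and 3 higher, against 9.71% and 9.75% of all genes. BRCA1 fell from 10.19 to 8.40 in Li-7 and from 8.87 to 7.04 in HEP-G2, the last value dim (mean -1.81, SE 0.24, limma adjusted p = 0.0445). BRCA1 passed under 10 of 14 settings and was lost after cyclic loess (limma adjusted p = 0.0665, range 0.00849 to 1). FOXM1, a mitotic transcription factor, stood at -1.77 (limma adjusted p = 0.0756) and CCNE2, a cyclin of the G1 to S transition, at -1.71 (limma adjusted p = 0.0581), the latter dim in HEP-G2. Both passed after quantile normalization (limma adjusted p = 0.0204 and 0.0116), where 465 genes passed in all, against 52 as deposited. Both also passed with the median gene and negative control filters and with an intensity trend. Neither passed after median centring (limma adjusted p = 0.0714 and 0.0545) or cyclic loess (limma adjusted p = 0.0959 and 0.0774). PLAU, urokinase, dim on the HEP-G2 control array, had a Li-7 difference of 2.46 and a HEP-G2 difference of 0.63, IGFBP1, a secreted binder of insulin-like growth factors, 1.66 and 1.16, and INSR, the insulin receptor, dim in Li-7, -0.05 and 0.28.

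**Figure D4:**
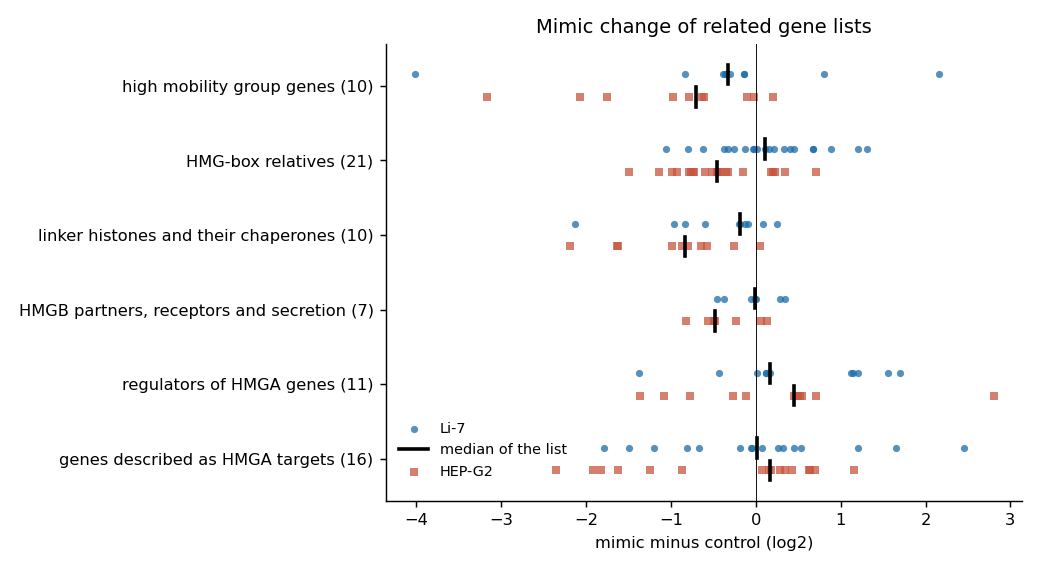
Mimic minus control on the deposited log2 scale for the tested genes of each list, blue circles for Li-7 and red squares for HEP-G2, with a black bar at the median of the list and the number of genes tested in brackets. The high mobility group and linker histone medians lie left of 0 in both lines and further left in HEP-G2, while the regulator and target lists spread to both sides.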

How the data were processed

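Total RNA from Li-7 and HEP-G2 cells was labelled with biotin for Affymetrix arrays, per the labels' protocols. The authors deposited summarised probe-set values, read here as log2 from their range (1.48 to 18.3). Expression Console and Transcriptome Analysis Console, both from Affymetrix, are the tools in the submitters' processing notes. Not given in the sources used here are background correction, normalization, log base and build, and the highest values exceed log2 of usual scanner readings, so folds hold for the deposited scale only. Genes were named through the platform annotation and RefSeq identifiers (17709 of 17709 probe sets matched). The brightest probe set stood for a gene, and genes whose mean reached the 30th percentile (4.90) were tested.

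Values were used as deposited in R 4.3.3 with limma 3.58.1 (lmFit and eBayes, line plus treatment, 5.85 prior degrees of freedom), with Benjamini-Hochberg adjustment over 12381 genes at 0.05. The fit was tested on simulated data, with variances drawn from its own prior and the same mimic effect in both lines. Responses that differ between the lines were not simulated, so the test does not cover them. Nothing in the labels gives separate cultures within a group. The named genes were the 10 members, the 5 nearest to HMGA1, and per list the 3 largest absolute mean changes and any gene past the threshold. SSRP1, H1-3, LIN28B, MYC, PLAU, IGFBP1 and INSR were named after their values were seen. Members and lists were chosen with earlier results of these data known, and the lists come from general knowledge.

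Alternatives were quantile, median and cyclic loess scaling over all probe sets, 3 other filters, a variance trend, robust eBayes, an ordinary t statistic, a model with 1 factor, averaged probe sets and a 1.5-fold limit. Quantile and loess scaling over named genes only were added after seeing the data, as were all alternatives for the named genes outside the 10.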

Additional observations from a re-analysis of the deposited data

Results flagged for a closer look

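In 3 of the 10 high mobility group genes the difference between mimic and control had opposite signs in the lines, as it did in 34.9% of all genes tested. With 1 array per group, whether these responses differ was not tested. HMGA2 stood at 2.15 in Li-7 and at -0.10 in HEP-G2, and kept both signs under 5 other scalings. Its HEP-G2 difference was smaller there, between -0.0809 and -0.0037, so its negative sign carries little weight. HMGN3 stood at -0.35 in Li-7 and at 0.20 in HEP-G2, again with the same signs under those scalings. HMGN4 stood at 0.80 in Li-7 and at -0.02 in HEP-G2, where the sign turned under all 5 scalings and every value was dim.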

How the results depend on the processing

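The HMGA1 change lay between -3.64 and -3.50 under the 5 other scalings, the only settings that could move it. Every other setting of the fit kept it at -3.59 and altered only its error or the other genes tested. It no longer passed without variance moderation (ordinary t statistic, -3.59), without cell line in the model (-3.59) and after cyclic loess over named genes (-3.58). The first 2 settings kept the change as deposited and altered only its error. The count of 52 genes passing for the mimic, 80.8% of them lower, was 465 after quantile normalization (58.7% lower), 87 with that normalization over named genes, 23 after cyclic loess and 0 with that over named genes (limma, 2376 at an unadjusted p under 0.05). It was 366 with a filter at the median gene, 200 with a filter on the negative controls, 411 with an intensity trend, 1 with an ordinary t statistic, and 0 without cell line in the model (limma, 182 at an unadjusted p under 0.05). The count of 5563 genes that differed between the lines was 1 with an ordinary t statistic. Median centring moved the median line difference of all genes by 0.126. At a limit of 1.5-fold in either direction, 4 members changed for Li-7 and 7 for HEP-G2, where 2 and 3 did at 2-fold. For Li-7, HMGA1 and HMGN2 were lower and HMGA2 and HMGN4, the latter dim, were higher. For HEP-G2 all 7 were lower. The share of all genes at 1.5-fold was not computed, so these counts have no background beside them. The causes of the shifts between settings were not tested. Of 549 values recomputed, 476 stayed the same, and 0 reversed. The direction of a gene could turn only under the 5 other scalings, since the other settings kept its change as deposited. Under those other settings the absence of reversals was fixed in advance. For a gene, the same means an unchanged direction and side of the limit. For a count of genes, it means within 1.5-fold of the count under the main settings. Single-line differences, such as that of HMGN4 in HEP-G2, were not among the 549. HMGN5 had no value under the median gene and negative control filters, nor HMGN4 under the latter.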
